A study of Homo sapiens with 20 samples.

Results

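Aminoacyl-tRNA synthetases, the enzymes that load each transfer RNA with its amino acid, were followed in U2OS human osteosarcoma cells under 4 stresses and after a block of transcription. The family was taken from a list of 35 gene symbols, 19 of cytosolic enzymes and 16 of mitochondrial enzymes (symbols ending in 2), and a probe set was used where the array's annotation gave it 1 of these symbols or its older form without the final 1. This left 32 measured genes, 17 cytosolic and 15 mitochondrial, covered by 67 probe sets, out of 19775 genes with a probe set of 1 symbol. All 32 passed the filter on low signal that 14478 genes passed. MARS1, QARS1 and TARS2 were represented here only by probe sets that carry a further symbol, and their values are not given.

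Each synthetase recognises 1 amino acid and its transfer RNAs, and most cytosolic enzymes have a separate nuclear gene for the mitochondrial counterpart that serves translation of the mitochondrial genome. GARS1 and KARS1 each encode both the cytosolic and the mitochondrial form, and EPRS1 joins the glutamate and proline enzymes in 1 protein. Part of the cytosolic set, including EPRS1, IARS1, LARS1, KARS1 and RARS1, is held with the scaffold protein AIMP1 in the multi-synthetase complex. When amino acids run short or misfolded protein collects in the endoplasmic reticulum (ER), phosphorylation of the initiation factor eIF2 raises translation of the transcription factor ATF4, and many cytosolic synthetase genes are known targets of ATF4, which binds with C/EBP partners to a short DNA element.

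The 20 arrays form 5 groups of 4 arrays. Hypoxic cells were kept below 0.1% oxygen. Tunicamycin-treated cells received 2.5 ug/ml of this inhibitor of N-linked glycosylation, which loads the ER with misfolded protein. Emetine-treated cells received 100 ug/ml of this inhibitor of translation elongation. UPF1-depleted cells carried a short hairpin against UPF1, also called Rent1, the helicase at the centre of nonsense-mediated mRNA decay (NMD). Control cells received none of these, and the labels name no control hairpin. The labels give a treatment of 3 hr for all 5 groups, after which 100 ug/ml of DRB was added to all but the 0 hr samples; DRB stops RNA polymerase II early in elongation. Samples span 4 times in DRB, 0, 1.5, 3 and 4.5 hr. There was 1 array per condition and time. Every p-value therefore measures only the scatter of single arrays about fitted lines. The labels do not describe separate cultures for the arrays, and a batch of cells or arrays and a condition cannot be told apart.

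The deposited values are array signals on a linear scale, normalized between arrays, so levels and slopes are relative to what a typical transcript did on the same array, and fewer cells cannot be told apart from less RNA per cell. Median signals were 37.3 to 40.4 across arrays. The brighter UPF1 probe set read 169.5, 92.4, 94.7 and 89.4 in UPF1-depleted cells after 0, 1.5, 3 and 4.5 hr in DRB, against 354.5, 352.4, 392.2 and 377.0 in control cells. Osteoblast or osteosarcoma markers lay above the filter for 6 of 7 genes, mesenchymal markers for 4 of 4, epithelial for 2 of 4 (EPCAM and KRT8), haematopoietic for 2 of 3 and hepatocyte markers for 0 of 2. Passing the filter, a signal of 26, does not by itself show expression. The osteoblast markers SP7 and IBSP and the haematopoietic marker CD3E passed with median signals of only 28.9, 27.8 and 30.3. The 3' over 5' signal ratio of the ACTB control probe sets differed between groups. On the log2 scale it was 2.04 ± 0.13 in hypoxia, 0.54 ± 0.11 in tunicamycin, 2.04 ± 0.19 in emetine, 1.24 ± 0.06 in UPF1-depleted cells and 0.55 ± 0.10 in control (SD, n = 4 arrays each). The same ratio for GAPDH differed less. It was 0.15 ± 0.04 in hypoxia, 0.00 ± 0.04 in tunicamycin, 0.11 ± 0.03 in emetine, 0.07 ± 0.02 in UPF1-depleted cells and 0.04 ± 0.04 in control (SD, n = 4 arrays each). All 4 hypoxia arrays lay above all 4 control arrays in this ratio.

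Promoter windows are shown because many cytosolic synthetase genes are known ATF4 targets and tunicamycin is the ER stress of this design. Of the 35 genes, 30 matched a RefSeq promoter window (GRCh38.p14, 250 bases before to 50 after a transcript start), and 7 of 16 cytosolic genes and 1 of 14 mitochondrial genes held the C/EBP-ATF element TGATGNAA on either strand. Over all genes with a window, 1217 of 27305 held it, 4.46%. The cytosolic genes were AARS1, CARS1, GARS1, IARS1, MARS1, NARS1 and TARS1, and the mitochondrial gene was YARS2. The ER stress element (CCAAT, any 9 bases, then CCACG, either strand), bound in the unfolded protein response, was in none of the 30 genes and in 25 of the 27305 genes. The stretches below are those of the measured genes, read along the strand of the gene, with the match in capitals. A match is a description of letters, not of a bound site.
AARS1, chr16:70289666-70289713, minus strand: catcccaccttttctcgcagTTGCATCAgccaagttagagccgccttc
CARS1, chr11:3057398-3057445, minus strand: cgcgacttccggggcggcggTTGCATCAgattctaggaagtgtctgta
GARS1, chr7:30594825-30594872, plus strand: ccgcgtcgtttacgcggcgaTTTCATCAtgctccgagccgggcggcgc
IARS1, chr9:92293683-92293730, minus strand: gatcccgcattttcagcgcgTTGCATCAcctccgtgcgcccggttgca
NARS1, chr18:57621795-57621842, minus strand: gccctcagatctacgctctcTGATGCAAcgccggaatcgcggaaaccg
TARS1, chr5:33440947-33440994, plus strand: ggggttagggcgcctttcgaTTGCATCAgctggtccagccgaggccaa
YARS2, chr12:32756067-32756114, minus strand: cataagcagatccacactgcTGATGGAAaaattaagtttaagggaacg
In AARS1 and YARS2 the match began 187 and 197 bases before the start, in GARS1 33, in IARS1 13 and in CARS1 2. In TARS1 and NARS1 it began 2 and 14 bases after the first transcribed base.

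Under tunicamycin 10 of 17 cytosolic level differences were above 0, while 11 of 15 mitochondrial ones were below 0. Over all 14478 genes tested, 6365 were above 0 and 8113 below. AARS1 and CARS1, which charge alanine and cysteine transfer RNAs, rose by 1.38-fold and 1.40-fold at the start of DRB. WARS1, SARS1 and GARS1, the tryptophan, serine and glycine enzymes, followed by size of their statistic without passing. No mitochondrial enzyme passed. The test is limma's moderated test of the level difference at DRB addition, over all 14478 genes, at a Benjamini-Hochberg adjusted p of 0.05.

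AARS1 read 1509.5, 1397, 1337 and 1366 in tunicamycin-treated cells after 0, 1.5, 3 and 4.5 hr in DRB, against 1099.7, 1003, 979 and 988 in control cells. Every tunicamycin array lay above every control array, and the matched differences were close to each other, from 0.45 to 0.48 log2. The share of all genes whose arrays do not overlap between 2 groups was not computed, here or in the comparisons below. Lack of overlap therefore cannot be set against all genes. The fitted level difference was 0.46 ± 0.09 log2 (SE, limma adjusted p = 0.0151). CARS1 read 5639.6, 5321, 5452 and 5263 in tunicamycin-treated cells, against 4055, 3571, 3496 and 3213 in control cells, again without overlap. Its level difference was 0.49 ± 0.10 log2 (limma adjusted p = 0.0179; 0.39 and 0.0965 with the median of its probe sets), and the matched differences ran from 0.48 at 0 hr to 0.71 at 4.5 hr.

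WARS1, also known as an interferon-induced enzyme, read 1383, 1448, 1318 and 1599.7 in tunicamycin-treated cells, against 977, 1126, 1244 and 1243 in control cells. SARS1 read 2811, 3214, 3235 and 3612 in tunicamycin-treated cells, against 2268, 2333, 2343 and 2534 in control cells. GARS1 read 5907, 6571, 6095 and 6575 in tunicamycin-treated cells, against 4856, 5189, 5308 and 5275 in control cells. All 4 tunicamycin arrays lay above all 4 control arrays for each of these 3 genes, but the level differences did not pass: 0.43 ± 0.12 log2 for WARS1 (limma adjusted p = 0.0704), 0.35 ± 0.10 for SARS1 (0.0868) and 0.29 ± 0.09 for GARS1 (0.123). A second SARS1 probe set, dimmer than the one used, differed more, by 1.25 ± 0.25 log2 over the 4 matched times (SD, n = 4).

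The mitochondrial enzymes with the largest statistics in tunicamycin were LARS2 and CARS2, for leucine and cysteine. LARS2 read 480.1, 448, 474 and 443 in tunicamycin-treated cells, against 567, 536, 598 and 511 in control cells. CARS2 read 232, 228, 228 and 248 in tunicamycin-treated cells, against 268, 266, 327 and 319.9 in control cells. For both genes every tunicamycin array lay below every control array, with level differences of -0.26 ± 0.10 log2 (LARS2, limma adjusted p = 0.201) and -0.22 ± 0.12 (CARS2, 0.404) that did not pass. LARS1, the cytosolic partner of LARS2, read 1757, 1861, 1805 and 1796 in tunicamycin-treated cells, against 1520.1, 1884, 1767 and 1869.7 in control cells, and the groups overlapped.

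Over the classes, 2 of 17 cytosolic enzymes were called higher in tunicamycin, beside 1.97% of all genes tested, and none lower, beside 0.926%. At an unadjusted p under 0.05, 5 cytosolic enzymes were higher and 1, EPRS1, lower. The share of all genes at this unadjusted cut was not computed, here or in the comparisons below. Such counts therefore cannot be set against all genes. EPRS1 read 2157, 2162, 2200.1 and 2235 in tunicamycin-treated cells, against 2470.3, 2519, 2674 and 2516 in control cells. Its arrays did not overlap, and the level difference of -0.22 ± 0.10 log2 did not pass (limma adjusted p = 0.289) but did as a mean over the 4 times (-0.22, 0.0195). WARS1, SARS1, GARS1, LARS2 and CARS2 also passed as that mean (limma adjusted p from 0.000378 to 0.0118). In all it called 7 cytosolic enzymes higher and 1 lower, and 1 mitochondrial enzyme higher and 3 lower, beside 11% and 11.5% of all genes. At DRB addition none of the 15 mitochondrial enzymes was called in either direction (limma). LARS2 alone was lower at an unadjusted p under 0.05. The median level difference was 0.12 log2 for cytosolic enzymes, with 10 of 17 above 0, and -0.16 for mitochondrial enzymes, with 4 of 15 above 0, against -0.03 over all genes tested. Of 13 pairs of enzymes for the same amino acid (FARS2 stands against both FARSA and FARSB), the cytosolic one had the higher level difference in 11. The 6 measured cytosolic genes with a C/EBP-ATF match had a median of 0.24 log2 (from -0.002 to 0.49), and the 8 with a window but no match, WARS1 and SARS1 among them, had a median of -0.06 (from -0.22 to 0.43). Neither AARS1 nor CARS1 passed when the 0 hr array of control or of tunicamycin was left out, with adjusted p up to 0.268 and 0.276, and CARS1 was also lost without control at 1.5 hr.

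**Figure D1:**
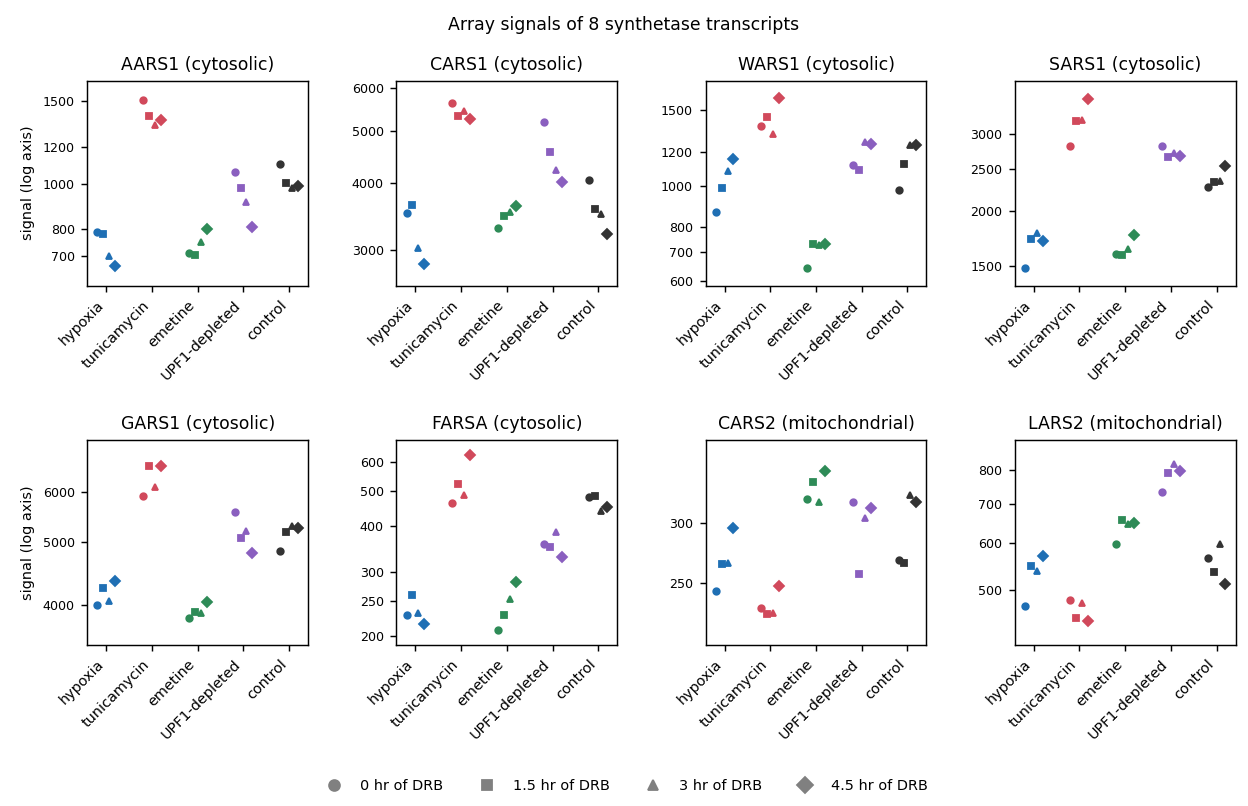
Signal of 8 synthetase transcripts on each of the 20 arrays, on a log axis, with conditions along the x axis and the marker giving the time in DRB (1 array per point). AARS1, CARS1, WARS1, SARS1 and GARS1 lie higher on all 4 tunicamycin arrays than on any control array, FARSA lies lower in hypoxia and emetine, and CARS2 and LARS2 lie lower in tunicamycin than in control.

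Among ATF4-type amino acid response genes, 14 of 27 tested were called higher in tunicamycin, beside 1.97% of all genes, and none lower, beside 0.926%, with a median of 0.81 log2. This list was assembled with earlier results of these data known and holds genes outside the synthetase family only as a comparison. SESN2, a sestrin induced by amino acid stress, differed by 3.93 ± 0.24 log2 (limma adjusted p = 2.77e-06), and DDIT3, the stress factor CHOP, by 5.05 ± 0.32 (3.27e-06). TRIB3 differed by 1.54 ± 0.12 log2 (1.81e-05) and ASNS, asparagine synthetase, by 0.81 ± 0.10 (0.000971). ATF4 transcript itself was not called (0.16 ± 0.10 log2, limma adjusted p = 0.415). The largest fitted difference of a synthetase was 0.49 log2, for CARS1.

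In hypoxia most synthetases lay below control, FARSA furthest. FARSA and FARSB, the alpha and beta subunits of the cytosolic phenylalanine enzyme, fell by 1.99-fold and 1.31-fold, SARS1 by 1.44-fold and AARS1 by 1.33-fold. Among mitochondrial enzymes NARS2, for asparagine, fell by 1.41-fold. All 17 cytosolic and 12 of 15 mitochondrial level differences were below 0, beside 7608 of all 14478 genes tested.

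EPRS1 above and the genes newly given array by array from here on (FARSA, FARSB, NARS2, EARS2, RARS2, AARS2, HARS1, HARS2, YARS2, MARS2 and PARS2) were chosen after their values were seen. FARSA read 229, 259.9, 232 and 216 in hypoxic cells, against 481, 485, 442 and 452 in control cells. The groups did not overlap, and the level difference was -0.99 ± 0.12 log2 (limma adjusted p = 0.000745). A second FARSA probe set differed less, by -0.64 ± 0.13 log2 over the 4 matched times (SD, n = 4). SARS1 read 1484, 1725, 1778 and 1704 in hypoxic cells and AARS1 789, 780.3, 703 and 666, both below every control array given above. Their level differences were -0.53 ± 0.10 log2 (limma adjusted p = 0.00841) for SARS1 and -0.41 ± 0.09 (0.0153) for AARS1. NARS2 read 842, 843, 843 and 836 in hypoxic cells, against 1159, 1311, 1127 and 1272 in control cells, a level difference of -0.50 ± 0.11 log2 (0.0158).

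Hypoxia called 4 of 17 cytosolic enzymes lower, beside 4.44% of all genes, and none higher, beside 3.21%. It called 1 of 15 mitochondrial enzymes lower and none higher, and at an unadjusted p under 0.05 no member of either class was higher and 12 were lower. As a mean over the 4 times, 10 cytosolic enzymes were called lower and none higher. By that mean 5 mitochondrial enzymes were lower and 1, IARS2, higher (0.205 log2, limma adjusted p = 0.0339). Over all genes 9.93% were lower and 9.99% higher by that mean. The medians of the level differences, -0.20 log2 in cytosolic and -0.21 in mitochondrial enzymes, stood against -0.02 over all genes. FARSB (-0.38 ± 0.10 log2, limma adjusted p = 0.0379) lay the other way, at 0.46 (0.375), when the median of its probe sets replaced the brightest. GARS1 read 3989, 4247, 4054 and 4354 in hypoxic cells, below all control arrays, with a level difference of -0.30 ± 0.09 log2 that did not pass (0.0728). The ACTB end ratio was also higher in hypoxia (2.04 against 0.55 in control), and its part in these differences was not tested. Without the control or the hypoxia array at 0 hr, no member passed.

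In emetine all 17 cytosolic level differences were below 0, beside 8366 of all 14478 genes tested. The mitochondrial enzymes lay on both sides of control. Of 17 cytosolic enzymes 14 fell at DRB addition, though CARS1 not as a mean over the 4 times, FARSA by 2.33-fold, FARSB by 1.78-fold, AARS1 by 1.54-fold and WARS1 by 1.51-fold. KARS1, TARS1 and VARS1, for lysine, threonine and valine, did not pass. Of the mitochondrial enzymes EARS2, for glutamate, and NARS2 fell, and YARS2, for tyrosine, rose by 1.37-fold.

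FARSA read 208, 229, 252 and 282 in emetine-treated cells after 0, 1.5, 3 and 4.5 hr in DRB, below every control array, a level difference of -1.22 ± 0.12 log2 (limma adjusted p = 1.11e-05). Its second probe set differed by -0.58 ± 0.11 log2 over the 4 times (SD, n = 4). FARSB read 1094, 1285, 1326 and 1358 in emetine-treated cells, against 1968, 2077, 2029 and 1935 in control cells, with a level difference of -0.83 ± 0.10 log2 (4.64e-05). Both subunits of the phenylalanine enzyme were therefore below control on all 4 emetine arrays with the probe sets used. A second FARSB probe set differed by -0.35 ± 1.33 log2 over the 4 times (SD, n = 4) and was above control at 2 of them. AARS1 read 712, 703, 751 and 799 in emetine-treated cells, SARS1 1597, 1585, 1636 and 1765 and WARS1 644, 733, 727 and 732, each below all control arrays. Their level differences were -0.62 ± 0.09 log2 (limma adjusted p = 0.00015), -0.53 ± 0.10 (0.00116) and -0.59 ± 0.12 (0.00139). GARS1 read 3809, 3902, 3888 and 4044 in emetine-treated cells, without overlap with control (-0.38 ± 0.09 log2, 0.00639).

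The tyrosine enzymes of the cytosol and of mitochondria moved in opposite directions. YARS1, the cytosolic tyrosine enzyme, had a level difference of -0.45 ± 0.10 log2 (limma adjusted p = 0.0043), against 0.46 ± 0.13 (0.0142) for its mitochondrial counterpart YARS2. EPRS1 differed by -0.41 ± 0.10 log2 (0.00615) and RARS1, for arginine, by -0.41 ± 0.10 (0.00822). EARS2 differed by -0.35 ± 0.08 log2 (0.00488) and NARS2 by -0.43 ± 0.11 (0.00669). The remaining called cytosolic enzymes, CARS1, HARS1, IARS1, LARS1 and NARS1, lay between -0.24 and -0.37 log2, with adjusted p from 0.0124 to 0.0492. CARS1 overlapped with control and was at -0.04 (0.671) as a mean over the 4 times, with 2 matched differences above 0 and 2 below. CARS1 and IARS1 each lost their call under 4 alternatives, and without any 1 of 17 and 19 arrays, while NARS1 lost it under 3 alternatives and LARS1 under 2.

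Emetine called 14 of 17 cytosolic and 2 of 15 mitochondrial enzymes lower, beside 19.8% of all genes, and none of the cytosolic and 1 of the mitochondrial enzymes higher, beside 18.9%. The cytosolic counts at an unadjusted p under 0.05 were 15 lower and none higher. The median level difference was -0.38 log2 in cytosolic and 0.00 in mitochondrial enzymes, against -0.08 over all genes, and the cytosolic enzyme had the higher level difference in only 1 of the 13 same-amino-acid pairs. Of the 5 measured enzymes of the multi-synthetase complex, 4 were called lower, and AIMP1, the only measured scaffold gene of the 3 listed, fell by 0.60 on the log2 scale (SE 0.10, limma adjusted p = 0.000442). The ACTB end ratio was 2.04 in emetine and 0.55 in control, its part was not tested, and of 26 second probe sets in 18 genes, 20 had a lower emetine difference than the brightest one of the gene, with a median of -0.15 log2 for other minus brightest over all 26. Counts fell to 5 without the control or the emetine array at 0 hr, and to 11 without probe sets marked as cross-hybridizing.

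**Figure D2:**
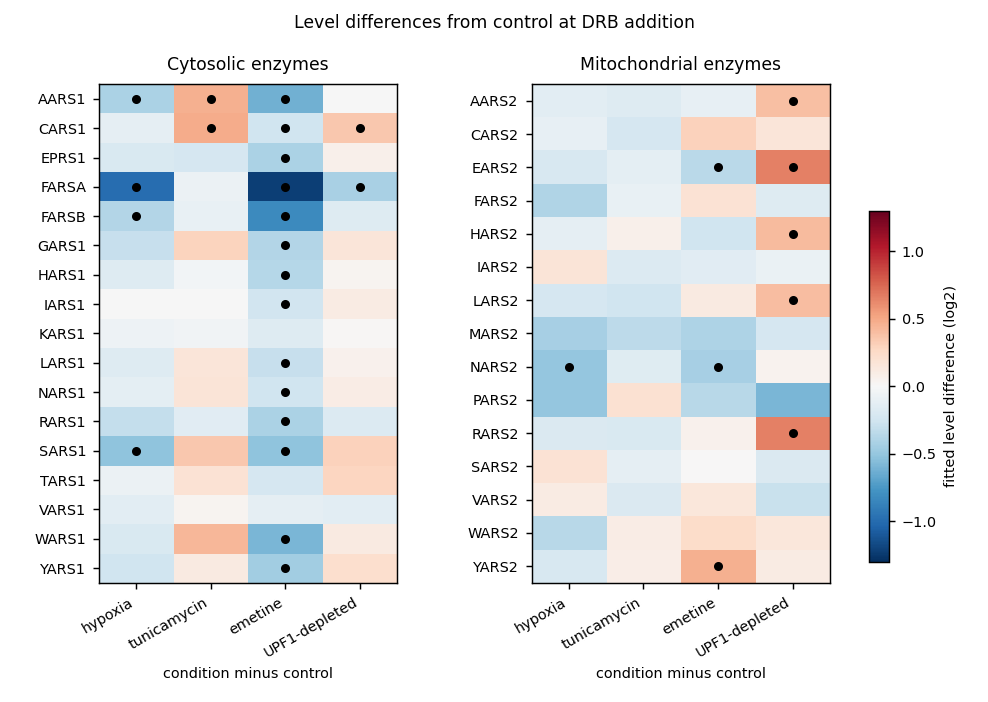
Fitted level difference from control at DRB addition (log2, colour) for the 17 cytosolic and 15 mitochondrial enzymes under hypoxia, tunicamycin, emetine and UPF1 depletion. Black dots mark differences past an adjusted p of 0.05; the emetine column holds 14 cytosolic dots below control, and the UPF1-depleted column holds 5 mitochondrial dots above control.

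In UPF1-depleted cells 5 of the 7 called differences belonged to mitochondrial enzymes. EARS2 and RARS2, for glutamate and arginine, rose by 1.57-fold each, HARS2 and LARS2, for histidine and leucine, by 1.33-fold and 1.32-fold, and AARS2, for alanine, by 1.31-fold. Among cytosolic enzymes CARS1 rose by 1.28-fold and FARSA fell by 1.34-fold, both calls that depended on the probe sets used. The other 10 mitochondrial and 15 cytosolic enzymes did not pass. Among these mitochondrial enzymes VARS2 and IARS2, named after their values were seen, lay below every control array. They differed by -0.41 ± 0.13 and -0.15 ± 0.08 log2 over the matched times (SD, n = 4). As a mean over the 4 times, 6 mitochondrial enzymes were called higher and 1, VARS2, lower (limma adjusted p = 0.000342), beside 17.7% and 13.7% of all genes. By that mean 3 cytosolic enzymes were called higher, CARS1, SARS1 and TARS1, and 3 lower, FARSA, RARS1 and VARS1. SARS1 and YARS1 lay above every control array, and RARS1 and FARSA below. SARS1, TARS1, YARS1, RARS1 and VARS1 were named here after their values were seen.

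EARS2 read 673, 737, 696 and 681 in UPF1-depleted cells after 0, 1.5, 3 and 4.5 hr in DRB, against 417, 500.3, 442 and 452 in control cells. RARS2 read 1061, 1000.1, 1129 and 1145 in UPF1-depleted cells, against 631, 736, 615 and 715 in control cells. LARS2 read 736, 792, 820.3 and 799 in UPF1-depleted cells, above each control array given above. None of the 3 genes overlapped between the groups, and the level differences were 0.65 ± 0.08 log2 for EARS2 (limma adjusted p = 0.000411), 0.65 ± 0.12 for RARS2 (0.0035) and 0.41 ± 0.10 for LARS2 (0.0203). Second probe sets of EARS2 differed by 0.37 ± 0.06 and 0.49 ± 0.13 log2 over the matched times and another by -0.07 ± 0.11 (SD, n = 4). Those of RARS2 differed by 0.63 ± 0.25 and -0.25 ± 0.15 log2, and with the median of its probe sets RARS2 lost its call (0.05 log2, adjusted p = 0.762). LARS2 lost its call in the same way (0.27 log2, 0.15).

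HARS2 and AARS2 overlapped with control because both fell during DRB. HARS2 read 1028, 890.3, 772 and 604 in UPF1-depleted cells, against 831, 607, 491 and 445 in control cells. At each of the 4 times the UPF1-depleted array was the higher one, by 0.31 to 0.65 log2, and the level difference was 0.41 ± 0.12 (limma adjusted p = 0.0328). AARS2 read 502, 348, 337 and 302 in UPF1-depleted cells, against 389.5, 258, 233 and 224 in control cells, with a level difference of 0.40 ± 0.12 log2 (0.0442). AARS2 lost its call under 6 of 10 alternatives (adjusted p up to 0.187) and without any 1 of 15 arrays, and HARS2 under 3 alternatives (up to 0.0732) and without any 1 of 6 arrays. CARS1 read 5186, 4558, 4222 and 4014 in UPF1-depleted cells (0.35 ± 0.10 log2, 0.0301), above the control array of the same time throughout. With the median of its probe sets CARS1 was at 0.03 (0.88), and of its 3 other probe sets 1 differed by 0.32 ± 0.04 log2 over the matched times and the others by -0.39 ± 0.31 and -0.15 ± 0.18 (SD, n = 4). FARSA read 357, 350.9, 386 and 329.8 in UPF1-depleted cells, below every control array (-0.42 ± 0.12 log2, 0.043), and was at -0.10 (0.71) without probe sets marked as cross-hybridizing.

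UPF1 depletion called 5 of 15 mitochondrial and 1 of 17 cytosolic enzymes higher, beside 9.68% of all genes, and none of the mitochondrial and 1 of the cytosolic enzymes lower, beside 3.99%. The mitochondrial counts at an unadjusted p under 0.05 were 5 higher and 2 lower. The median level difference was 0.11 log2 in mitochondrial and 0.07 in cytosolic enzymes, against 0.01 over all genes. Quantile normalization between arrays called 3 members higher and 2 lower in place of 6 and 1. The ACTB end ratio was 1.24 in UPF1-depleted cells and 0.55 in control, and its part was not tested. No member passed without the UPF1-depleted array at 0 hr, 1 without the control array at 0 hr, 2 without the one at 1.5 hr, 3 without the one at 4.5 hr, and 4 without the UPF1-depleted array at 1.5 hr.

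**Figure D3:**
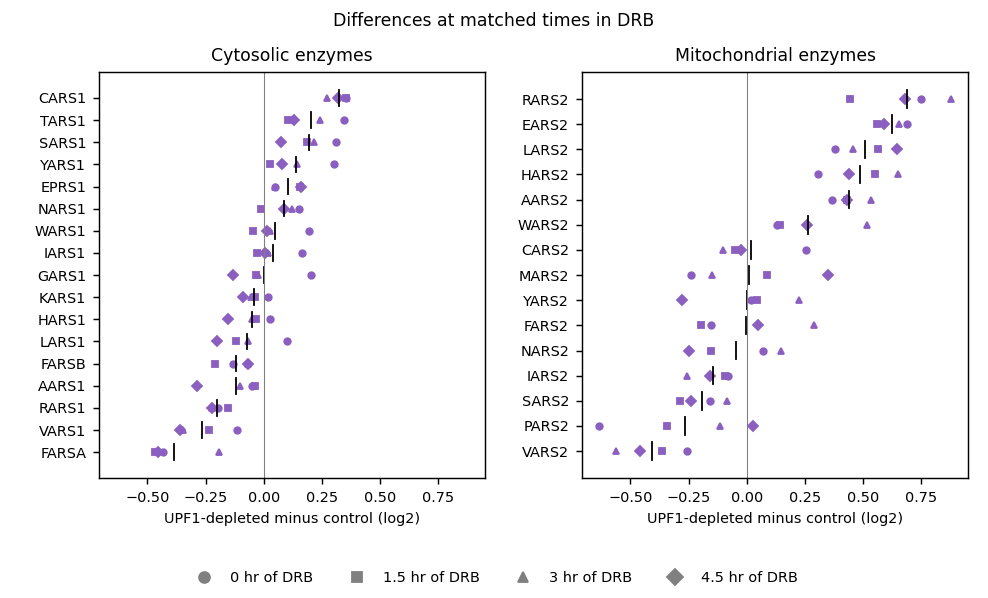
Difference of UPF1-depleted from control signal at matched times in DRB (log2, x axis) for each cytosolic and mitochondrial enzyme, 1 marker per time and a black line at the mean of the 4. RARS2, EARS2, LARS2, HARS2 and AARS2 are above 0 at every time, and FARSA is below 0 at every time.

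After DRB in control cells the mitochondrial enzymes included the transcripts that were lost fastest. MARS2, for methionine, PARS2, for proline, YARS2, HARS2 and AARS2 fell relative to the typical transcript, while 14 of 17 cytosolic slopes did not pass. Among cytosolic enzymes VARS1 and WARS1 rose relative to the typical transcript and CARS1 fell. These slopes, in log2 per hr, come from a line per condition and do not measure a half-life, since normalization sets the typical transcript at a constant level.

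MARS2 read 149, 45.2, 27.9 and 22.1 in control cells after 0, 1.5, 3 and 4.5 hr in DRB, a slope of -0.60 ± 0.11 log2 per hr (SE, limma adjusted p = 0.000784). YARS2 read 659, 535, 342 and 273 in control cells (-0.30 ± 0.04 log2 per hr, 3.92e-05). The control signals of HARS2 and AARS2 given above correspond to slopes of -0.20 ± 0.03 (0.000215) and -0.17 ± 0.04 log2 per hr (0.0121). PARS2 had a slope of -0.32 ± 0.08 (0.00788) and read 60.8, 34.7, 22.8 and 23.0. The last signals of MARS2 and PARS2 lie below the signal of 26 that the filter corresponds to, so their full loss is not measurable here. VARS1 had a slope of 0.11 ± 0.03 log2 per hr (0.0131), WARS1 of 0.08 ± 0.03 (0.0453, but 0.138 after centring on ribosomal protein genes) and CARS1 of -0.07 ± 0.02 (0.0365). The CARS1 slope was 0.02 (0.719) with the median of its probe sets.

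In control, 5 of 15 mitochondrial and 1 of 17 cytosolic enzymes had a called negative slope, beside 17.5% of all genes, and none of the mitochondrial and 2 of the cytosolic enzymes a called positive one, beside 14.2%. Mitochondrial slopes at an unadjusted p under 0.05 were 2 positive and 6 negative. The median slope was -0.02 log2 per hr in mitochondrial and 0.03 in cytosolic enzymes, against 0.03 over all genes. In 10 of 13 same-amino-acid pairs the cytosolic slope was the higher one. Quantile normalization called 4 positive and 6 negative slopes and centring on ribosomal protein genes 1 and 7, in place of 2 and 6. Without the control array at 0 hr only 1 slope, that of YARS2, passed, and without the one at 4.5 hr 5 did.

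HARS1 and HARS2 are shown as a neighbouring pair because they are transcribed away from each other from starts 85 bases apart on chromosome 5, and only HARS2 had a called control slope. The 86 bases from the first base of HARS1 (minus strand) to the first base of HARS2 (plus strand), at chr5:140691370-140691455 in GRCh38.p14, read along the plus strand and hold no TGATGNAA match.
HARS1-HARS2: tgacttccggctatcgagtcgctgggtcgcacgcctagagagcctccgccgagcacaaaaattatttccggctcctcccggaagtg
HARS1 read 1599, 1672, 1753 and 1822 in control cells, a slope of 0.04 ± 0.03 log2 per hr that did not pass (limma adjusted p = 0.216). HARS2, whose control slope was -0.20, also fell in hypoxia (-0.19 ± 0.03, 0.000463) and in UPF1-depleted cells (-0.17 ± 0.03, 0.0011). The HARS1 slope passed in none of the 5 conditions, with estimates from 0.00 to 0.04 log2 per hr.

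In emetine, where only 57 of all 14478 genes tested had a called slope, none of the 5 mitochondrial transcripts with a called fall in control did. Relative to control, 4 of their slopes passed as different, those of MARS2, PARS2, YARS2 and HARS2, higher by 0.59, 0.36, 0.29 and 0.27 log2 per hr, while AARS2 did not pass (0.12 ± 0.04, limma adjusted p = 0.0839). These 5 were picked by their fall on the control arrays, which also enter the slope difference. A higher slope in emetine was thus favoured in advance. The share passing among all genes with a called fall in control was not computed. No cytosolic enzyme had a called slope difference in emetine. This compares the loss of transcripts after DRB with and without the block of translation elongation.

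MARS2 read 78.1, 102, 81.3 and 81.7 in emetine-treated cells after 0, 1.5, 3 and 4.5 hr in DRB, against the fall to 22.1 in control cells. YARS2 read 869, 983, 1004 and 847 in emetine-treated cells, above every control array. HARS2 read 654, 719.7, 761 and 827 in emetine-treated cells, lower than the control array at 0 hr and higher at the 3 later times. PARS2 read 36.6, 52.6, 46.6 and 44.3 in emetine-treated cells, with the same order of the groups. The slope differences were 0.59 ± 0.10 log2 per hr for MARS2 (SE, limma adjusted p = 0.00181), 0.29 ± 0.05 for YARS2 (0.000831), 0.27 ± 0.04 for HARS2 (0.000514) and 0.36 ± 0.09 for PARS2 (0.0193). Within emetine none of these 4 slopes was called, and they lay between -0.01 and 0.07 log2 per hr. Over all 14478 genes tested, 10 slopes in emetine were called positive and 47 negative, against 2063 and 2529 in control.

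Emetine called 4 of 15 mitochondrial and none of 17 cytosolic slopes higher, beside 12.8% of all genes, and none lower, beside 1.58%. At an unadjusted p under 0.05, 4 cytosolic slopes were higher and 1 lower. Quantile normalization called 4 higher and 1 lower. The count was 2, YARS2 and HARS2, without the control or the emetine array at 0 hr. PARS2 was also lost without the control array at 4.5 hr.

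Under the other stresses no slope difference of a synthetase was called by limma. In tunicamycin 0 of 32 passed in either direction, beside 4.66% higher and 0.580% lower over all genes, with 6 higher at an unadjusted p under 0.05. YARS2 read 712, 633, 557 and 473 in tunicamycin-treated cells and had the largest statistic, with a slope difference of 0.17 ± 0.05 log2 per hr (limma adjusted p = 0.0613), followed by HARS2 (0.12 ± 0.04, 0.119) and FARSA (0.11 ± 0.04, 0.219). In hypoxia the count was 0 of 32, beside 0.0345% higher and 0% lower, and 0 at an unadjusted p under 0.05. LARS2, YARS2 and PARS2 had the largest statistics there, with slope differences of 0.07, 0.09 and 0.17 log2 per hr (adjusted p 0.512, 0.527 and 0.569). In UPF1-depleted cells it was 0 of 32, beside 0.0345% higher and 0.00691% lower, and 0 at an unadjusted p under 0.05. GARS1 (-0.07 log2 per hr, 0.803), LARS1 (-0.06, 0.883) and FARS2 (0.07, 0.899) had the largest statistics. The HARS2 slope difference in UPF1-depleted cells was 0.03 ± 0.04 log2 per hr (0.987).

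**Figure D4:**
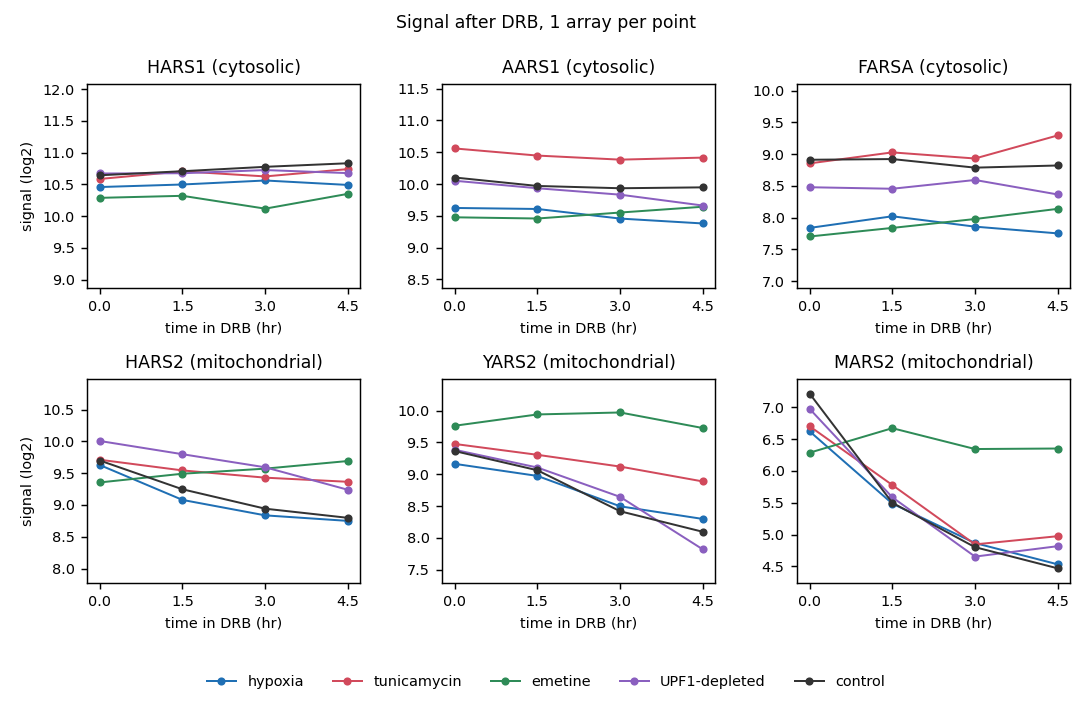
Signal (log2, y axis) of 3 cytosolic and 3 mitochondrial enzymes against time in DRB (hr), 1 array per point and 1 line per condition; every panel spans the same log2 range. HARS2, YARS2 and MARS2 fall in control and stay near their level in emetine, while HARS1, AARS1 and FARSA differ between conditions mainly in level.

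Set directly against hypoxia and emetine, tunicamycin had 9 and 12 of 17 cytosolic enzymes called higher, and against UPF1-depleted cells 1. Over hypoxia, 9 of 17 cytosolic enzymes were higher and none lower, beside 6.71% and 6.57% of all genes, and 1 of 15 mitochondrial enzymes, WARS2 for tryptophan, was higher and none lower. At an unadjusted p under 0.05 the mitochondrial counts were 5 higher and 3 lower. The tunicamycin arrays, which also enter the comparison with control, gave the largest statistics over hypoxia for AARS1 (0.88 ± 0.09 log2, limma adjusted p = 7.77e-05), SARS1 (0.87 ± 0.10, 2e-04) and FARSA (0.91 ± 0.12, 0.000676). GARS1 (0.59 ± 0.09 log2, 0.00173), CARS1 (0.60 ± 0.10, 0.00179) and WARS1 (0.63 ± 0.12, 0.00401) also passed, as did YARS1 (0.38 ± 0.10, 0.0303), LARS1 (0.32 ± 0.09, 0.0407) and NARS1 (0.30 ± 0.09, 0.0428). WARS2 differed by 0.45 ± 0.13 log2 (0.0354) with its brightest probe set and by 0.15 (0.632) with the median of its probe sets. LARS1 turned to -0.10 (0.71) with that choice, and YARS1 (0.0536) and NARS1 (0.0511) lost their call. The count of 10 was 2 without the hypoxia array at 0 hr, 5 without the tunicamycin array at 0 hr, 6 without either array at 1.5 hr and 5 without probe sets marked as cross-hybridizing.

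Over emetine, 12 of 17 cytosolic enzymes were higher in tunicamycin and none lower, while 1 of 15 mitochondrial enzymes was higher and 4 lower, beside 14.0% higher and 17.7% lower over all genes. AARS1 (1.08 ± 0.09 log2, limma adjusted p = 3.16e-06), FARSA (1.14 ± 0.12, 2.72e-05) and WARS1 (1.03 ± 0.12, 3.53e-05) had the largest statistics. SARS1 (0.87 ± 0.10 log2, 3.88e-05), CARS1 (0.75 ± 0.10, 0.000102) and FARSB (0.73 ± 0.10, 0.000164) came next, and GARS1, HARS1, LARS1, NARS1, TARS1 and YARS1 completed the 12, at 0.34 to 0.67 log2 with adjusted p from 0.000178 to 0.0263. With the median of probe sets LARS1 (0.24, 0.214) and TARS1 (0.23, 0.221) lost this call. The mitochondrial enzymes lower in tunicamycin were CARS2 (-0.52 ± 0.12 log2, 0.00624), LARS2 (-0.38 ± 0.10, 0.0126, but -0.28, 0.0804, with the median of its probe sets), VARS2 (-0.33 ± 0.11, 0.0365) and YARS2 (-0.37 ± 0.13, 0.0462). VARS2 (0.0558) and YARS2 (0.0704) lost their call under quantile normalization. A second CARS2 probe set differed from control by 0.02 ± 0.29 log2 in tunicamycin and -0.37 ± 0.29 in emetine over the matched times (SD, n = 4). HARS2 (0.32 ± 0.11, 0.0485) was higher at DRB addition and at -0.02 (0.938) as a mean over the 4 times. The cytosolic difference was the higher one in all 13 same-amino-acid pairs. The ACTB end ratio was 0.54 in tunicamycin and 2.04 in both emetine and hypoxia, and its part in these 2 comparisons was not tested. Quantile normalization called 16 higher and 2 lower in place of 13 and 4, and the total of 17 was 7 without the tunicamycin array at 0 hr and 10 without the emetine array at 0 hr.

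Over UPF1-depleted cells, AARS1 was the 1 of 17 cytosolic enzymes higher in tunicamycin (0.47 ± 0.09 log2, limma adjusted p = 0.00404) and none was lower, while none of 15 mitochondrial enzymes was higher and 4 were lower, beside 4.39% higher and 12.2% lower over all genes. At an unadjusted p under 0.05, 1 cytosolic enzyme was lower and 1 mitochondrial enzyme higher. The mitochondrial enzymes were EARS2 (-0.78 ± 0.08 log2, 0.000132), RARS2 (-0.85 ± 0.12, 0.000621, but -0.18, 0.21, with the median of its probe sets), LARS2 (-0.67 ± 0.10, 0.0012) and AARS2 (-0.56 ± 0.12, 0.00716). These are 4 of the 5 mitochondrial enzymes that rose in UPF1-depleted cells against control, and both comparisons use the same UPF1-depleted arrays. Quantile normalization called 3 higher and 4 lower and centring on ribosomal protein genes 2 and 4, in place of 1 and 4. The count was 1 without the UPF1-depleted array at 0 hr, 3 without the tunicamycin array at 0 hr, and 8 without the tunicamycin array at 3 hr or at 4.5 hr.

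Genes that work beside the synthetases were mostly not called in tunicamycin. With 1.97% of all genes called higher and 0.926% lower, lists this small would hold few or no calls in tunicamycin. None of 6 transfer RNA delivery factors was called there, with XPOT, which exports transfer RNA from the nucleus, at 0.44 ± 0.14 log2 (limma adjusted p = 0.134) and TUFM, the mitochondrial elongation factor Tu, at -0.19 ± 0.10 (0.393). None of 8 synthetase relatives was called, with SEPSECS, of selenocysteine synthesis, at 0.63 ± 0.27 log2 (0.254) and TARS3, a second threonine enzyme, at -0.50 ± 0.22 (0.262). Of 9 genes of uncharged-tRNA sensing, PPP1R15A, the phosphatase subunit that reverses eIF2 phosphorylation, was higher by 1.93 ± 0.23 log2 (0.000607). EIF2AK4, the kinase GCN2, lay at -0.18 ± 0.13 log2, GCN1 at -0.17 ± 0.11 and IMPACT at -0.12 ± 0.21, none of them called. Of 15 genes of the mitochondrial ribosome and its translation none was called in tunicamycin (MRPS12 -0.28 ± 0.11 log2, 0.199, and MRPS22 -0.23 ± 0.10, 0.234). In emetine 9 of these 15 were lower and 1 higher, beside 19.8% lower and 18.9% higher over all genes.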

How the data were processed

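RNA of 20 U2OS samples, 5 conditions at 4 times in DRB, was measured on 1 Affymetrix array each. The deposited intensity values are on a linear scale and come from RMA (per the submitters' processing notes, version not given); probe-level steps are not given in the sources used here. Values were taken to log2. Of 54675 probe sets, the platform annotation gives 41097 a single symbol, 1801 several and 11777 none. Old symbols were updated, and a gene was represented by its brightest probe set of 1 symbol. A mean of at least log2 4.70, the 40th percentile over probe sets, was required, which left 14478 genes.

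In R 4.3.3 with limma 3.58.1, 1 fit of 12 coefficients and 8 residual degrees of freedom gave, for each condition against control, the difference in level when DRB was added and the difference in slope, with the time in DRB, shared by all conditions, as a block. Slopes within a condition came from a line per condition with 10 residual degrees of freedom. Calls are at a Benjamini-Hochberg adjusted p of 0.05 over all genes of a comparison. Counts at an unadjusted p under 0.05 were made for the members only. The times are part of the design, so arrays of 1 time were paired by time and not by culture. The script was tested on simulated data. Probe sets ending in _s_at or _x_at can take up other transcripts. Array precision is limited by the number of arrays.

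Promoter sequences are from RefSeq (GRCh38.p14); AARS2, LARS1, VARS1, VARS2 and YARS1 had no window. Named in detail were members past the threshold (the 12 with the largest statistics where more passed, the 3 largest where fewer than 3 passed); array values were set for AARS1, GARS1, WARS1, SARS1 and the 2 mitochondrial members with the largest tunicamycin statistics, with their cytosolic partners. The members, the gene lists and this rule were chosen with earlier results of these data known. Alternatives were another normalization, filter, pseudocount, probe set choice, variance model and time model, and leaving out each array.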

Additional observations from a re-analysis of the deposited data

Results flagged for a closer look

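Of 76 sets of 4 matched-time differences from control, 5 held 1 value that stood apart by Dixon's criterion, and chance alone gives about 1 in 20. CARS1 in hypoxia was at 0.03 log2 at 1.5 hr of DRB, against -0.21 to -0.18 at the other times. GARS1 in hypoxia was at -0.39 at 3 hr, against -0.29 to -0.28, and MARS2 in hypoxia at -0.59 at 0 hr, against -0.01 to 0.07. FARSA in UPF1-depleted cells was at -0.19 at 3 hr, against -0.47 to -0.43. The median over the 15 mitochondrial enzymes in UPF1-depleted cells was 0.23 at 3 hr, against 0.04 to 0.07.

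The slope in DRB differed between emetine and control, by a test of the difference itself (limma), for 4 mitochondrial enzymes: MARS2 by 0.59 log2 per hr (adjusted p = 0.00181), PARS2 by 0.36 (0.0193), YARS2 by 0.29 (0.000831) and HARS2 by 0.27 (0.000514). These were 4 of all 32 members, close to the 12.8% of all genes called higher, and 1.58% were called lower. All 4 also had a called fall in control, whose arrays enter the difference.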

How the results depend on the processing

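Of 75 called member differences, 59 lost their call without at least 1 of the 20 arrays, 27 lost it under at least 1 of 10 other alternatives, and 16 kept it throughout, among them AARS1, FARSA and FARSB in emetine. The members called numbered 5 in hypoxia, with 8 under a trended robust variance and 16 as a mean over the 4 times. Tunicamycin called 2, with 4 under quantile normalization, 5 under a trended robust variance and 12 as a mean over times. Emetine called 17, with 11 without cross-hybridizing probe sets and 24 as a mean over times. As that mean, mitochondrial calls were 6 higher and 3 lower in place of 1 and 2, beside 28.4% and 35.4% of all genes. UPF1 depletion called 7, with 3 unfiltered, 4 with the median of probe sets and 13 as a mean over times. The tunicamycin slope called 0, with 1 each at the 60th percentile filter, with a pseudocount of 16 and under a trended robust variance. Tunicamycin over hypoxia called 10, with 6 unfiltered, 6 with the median of probe sets, 5 without cross-hybridizing probe sets and 21 as a mean over times. Tunicamycin over UPF1-depleted cells called 5, with 8 at the 60th percentile, 8 with the pseudocount, 9 under a trended robust variance and 14 as a mean over times. As a mean over times, the shares of all genes called higher and lower were 9.99% and 9.93% in hypoxia and 11% and 11.5% in tunicamycin. They were 17.7% and 13.7% in UPF1-depleted cells. For tunicamycin they were 18.1% and 20% over hypoxia and 14.3% and 20.9% over UPF1-depleted cells.

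Leaving out each array gave 0 to 6 calls in hypoxia, 0 to 3 in tunicamycin, 5 to 16 in emetine, 0 to 7 in UPF1-depleted cells, 0 to 1 for the tunicamycin slope, 2 to 5 for the emetine slope, 1 to 8 for the control slope, 0 to 0 for the hypoxia and UPF1-depleted slopes, 2 to 12 over hypoxia, 7 to 18 over emetine and 1 to 8 over UPF1-depleted cells. Directions turned for FARSB in hypoxia (0.46), the CARS1 control slope (0.017) and LARS1 over hypoxia (-0.10) with the median of probe sets, and for HARS2 over emetine (-0.015) as a mean over times; the cause was not tested. Without the replicate block (no shared time term), counts were 4 in hypoxia, 2 in tunicamycin, 14 in emetine, 6 in UPF1-depleted cells, 3 for the emetine slope, 7 over hypoxia, 15 over emetine and 4 over UPF1-depleted cells. Transcripts near a signal of 26, such as MARS2 and PARS2 late in DRB, cannot show a further fall.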

Other observations

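At matched times in DRB, the median difference from control over the 17 cytosolic enzymes in emetine was -0.36 log2 at 0 hr, -0.39 at 1.5 hr, -0.43 at 3 hr and -0.31 at 4.5 hr, and over the 15 mitochondrial enzymes it was 0.03, 0.29, 0.14 and 0.35. The median over all genes tested was between -0.09 and -0.07. In tunicamycin the cytosolic medians at these 4 times were 0.18, 0.09, 0.11 and 0.28. There, 11 to 12 of 17 enzymes were above control, beside 44.9% to 48.4% of all genes tested. The mitochondrial medians in tunicamycin were -0.15, -0.07, 0.04 and -0.04. In hypoxia the cytosolic medians were -0.20 to -0.28, while the mitochondrial medians were -0.20 at 0 hr and -0.05 at 4.5 hr. In UPF1-depleted cells the cytosolic medians were between -0.07 and 0.10.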
